A study of Mus musculus with 20 samples.

Results

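Translation initiation factor genes were followed across 20 RNA sequencing libraries of whole mouse spleen. The members are the protein-coding genes of the deposited count table whose symbols begin with Eif1 to Eif6, without the Y-linked gene Eif2s3y and without the Eif2ak kinase genes. The rule takes 50 of 54532 genes, and 49 of them passed the filter on low counts. The remaining member, Eif4e1b, a cap-binding protein gene, had 0 counts in every library. Mice were 4 weeks old and were either controls or bred on a gluten-free diet. Library IDs were plain numbers in 8 control libraries (IDs 1 to 8) and 4 gluten-free libraries (IDs 7 to 10). They began with the letter S in 3 control libraries (S1, S2 and S6) and 5 gluten-free libraries (S1, S3, S5, S6 and S8). The labels give no strain and no meaning for the letter, and do not say that each ID is a separate mouse, so p-values measure the spread between these libraries. Each diet comparison was therefore made within each ID form as well as over both.

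Initiation of translation begins when eIF2, carrying GTP and the initiator methionyl-tRNA, joins eIF1, eIF1A, eIF3 and eIF5 on the small ribosomal subunit. The eIF4F assembly of the cap-binding protein eIF4E, the scaffold eIF4G and the helicase eIF4A brings this complex to the capped end of an mRNA, and eIF5B then joins the large subunit. Control acts at eIF2, whose phosphorylation by the EIF2AK kinases blocks its exchange factor eIF2B, and at eIF4E, which the 4E-binding proteins hold inactive until mTOR phosphorylates them. In the spleen of young mice, dividing erythroid precursors make large amounts of globin, and their heme-regulated kinase, EIF2AK1, ties initiation to heme supply.

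Values are given as CPM, the library-size unit, after TMM scaling, which sets library sizes from the bulk of the genes. Library totals ran from 13626021 to 24268237 counts, and members took 0.793% to 0.947% of the counts of a library. Markers of spleen cells were present in every library: the summed level of 9 B cell markers was 1189 to 3444 CPM and that of 10 T cell markers 309 to 900 CPM. Markers of the pancreatic acinar cell, which is not a spleen cell, summed to 867 CPM in control 4 and 9772 CPM in gluten-free S1, against 6.23 to 26.3 CPM elsewhere. In whole tissue, fewer cells of a type and less RNA per cell cannot be told apart.

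Levels differed widely among the members. Per kilobase of gene length, over all 20 libraries, Eif5a, which helps the ribosome through difficult stretches and carries hypusine, was highest at a mean of 319 CPM per kilobase. Eif1, which guards start codon choice, followed at 275, then the helicase gene Eif4a1 at 123 and the eIF3 subunit gene Eif3h at 117. At the other end stood Eif5a2 at 4.13, Eif4e3 at 3.69, Eif2b3 at 3.44 and Eif4ebp3 at 1.21 CPM per kilobase. By the deposited positions (build GRCm38) the members lie on 18 chromosomes, with at most 5 on any of them. Some share sequence with other genes, and how multiply mapped reads were counted is not given in the sources used here. Of the 50-base windows of Eif3j2 transcripts 90.8% also occur in Eif3j1, and 36.6% of those of Eif3j1 occur in Eif3j2, so the split between these copies is uncertain. Shared windows with an annotated partner made up 65.5% for Eif4ebp3, 37.2% for Eif3d, 34.6% for Eif2s3x and 24.2% for Eif4a1. In all, 15 of the 50 members shared 10% or more of their windows with other genes.

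Since most members fell together in part of the libraries, their promoters were searched for 4 short motifs, on both strands of the 250 bases before the start site. RefSeq windows of build GRCm38.p6 matched 38 of the 50 members by symbol. The E-box CACGTG, which MYC and related factors can bind, was held by 7 of the 38 (18.4%), against 6.81% of 16497 gene windows of the same length. An ETS-type motif, CCGGAAG, was held by 10 members (26.3%) against 9.52%. CCAAT was held by 10 members (26.3%) against 36.1%, and the GATA-type motif AGATAA by 1 member, Eif3c (2.63%), against 8.87%. A match is a description of letters and not a site of binding. The E-box members were Eif1b, Eif3f, Eif3k, Eif4a1, Eif4g1, Eif4h and Eif5a2. The stretches below are the E-box windows of this set that lie wholly outside the deposited span of their gene, read 5′ to 3′ on the gene's strand with the E-box in capitals. They are shown to set the repeated motif of Eif5a2 beside single copies and beside Eif3f, a member that was not called between the diets.
Eif5a2 (chr3:28781120-28781179, plus strand): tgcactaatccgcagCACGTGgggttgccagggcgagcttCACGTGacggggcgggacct
Eif4a1 (chr11:69672580-69672639, minus strand): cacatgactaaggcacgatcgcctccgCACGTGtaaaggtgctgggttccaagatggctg
Eif3k (chr7:28981900-28981959, minus strand): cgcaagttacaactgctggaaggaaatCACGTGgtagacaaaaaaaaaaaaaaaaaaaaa
Eif3f (chr7:108934320-108934379, plus strand): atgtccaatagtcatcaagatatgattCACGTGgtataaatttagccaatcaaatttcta
The copies of Eif5a2 begin 142 and 117 bases before its start site, and those of Eif4a1, Eif3k and Eif3f begin 189, 44 and 68 bases before theirs. Of the 7 E-box members, Eif5a2, Eif4a1, Eif3k, Eif4g1 and Eif4h were lower in gluten-free libraries with plain IDs, and Eif1b and Eif3f were not called there. Of all 49 tested members 38 (77.6%) were lower there, so the E-box members did not stand out. A part of the motif in the fall was not tested.

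Within the plain IDs, most initiation factor genes were lower in gluten-free than in control spleens. Of 49 members 38 fell and 2 rose at an adjusted p under 0.05 (edgeR quasi-likelihood test, Benjamini-Hochberg over 17600 genes). Over all genes tested 22.0% fell, 19.7% rose and 41.7% were called in either direction. The median log2 fold change, gluten-free minus control, was -0.41 over the members and 0.05 over all genes. The summed level of the members after scaling was 8050 to 10149 CPM (median 9291) in the control libraries. It was 7191, 7290, 7213 and 7497 CPM in the gluten-free libraries, so the scaled sums did not overlap. For 28 of 49 members no gluten-free value reached the control range, in each case from below, while 21.4% of all genes had no overlap in either direction. The members that rose were Eif4e3 and Eif4g3, and those not called were Eif1a, Eif1b, Eif2b5, Eif3f, Eif3h, Eif4a2, Eif4ebp2, Eif4ebp3 and Eif4g2.

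**Figure D1:**
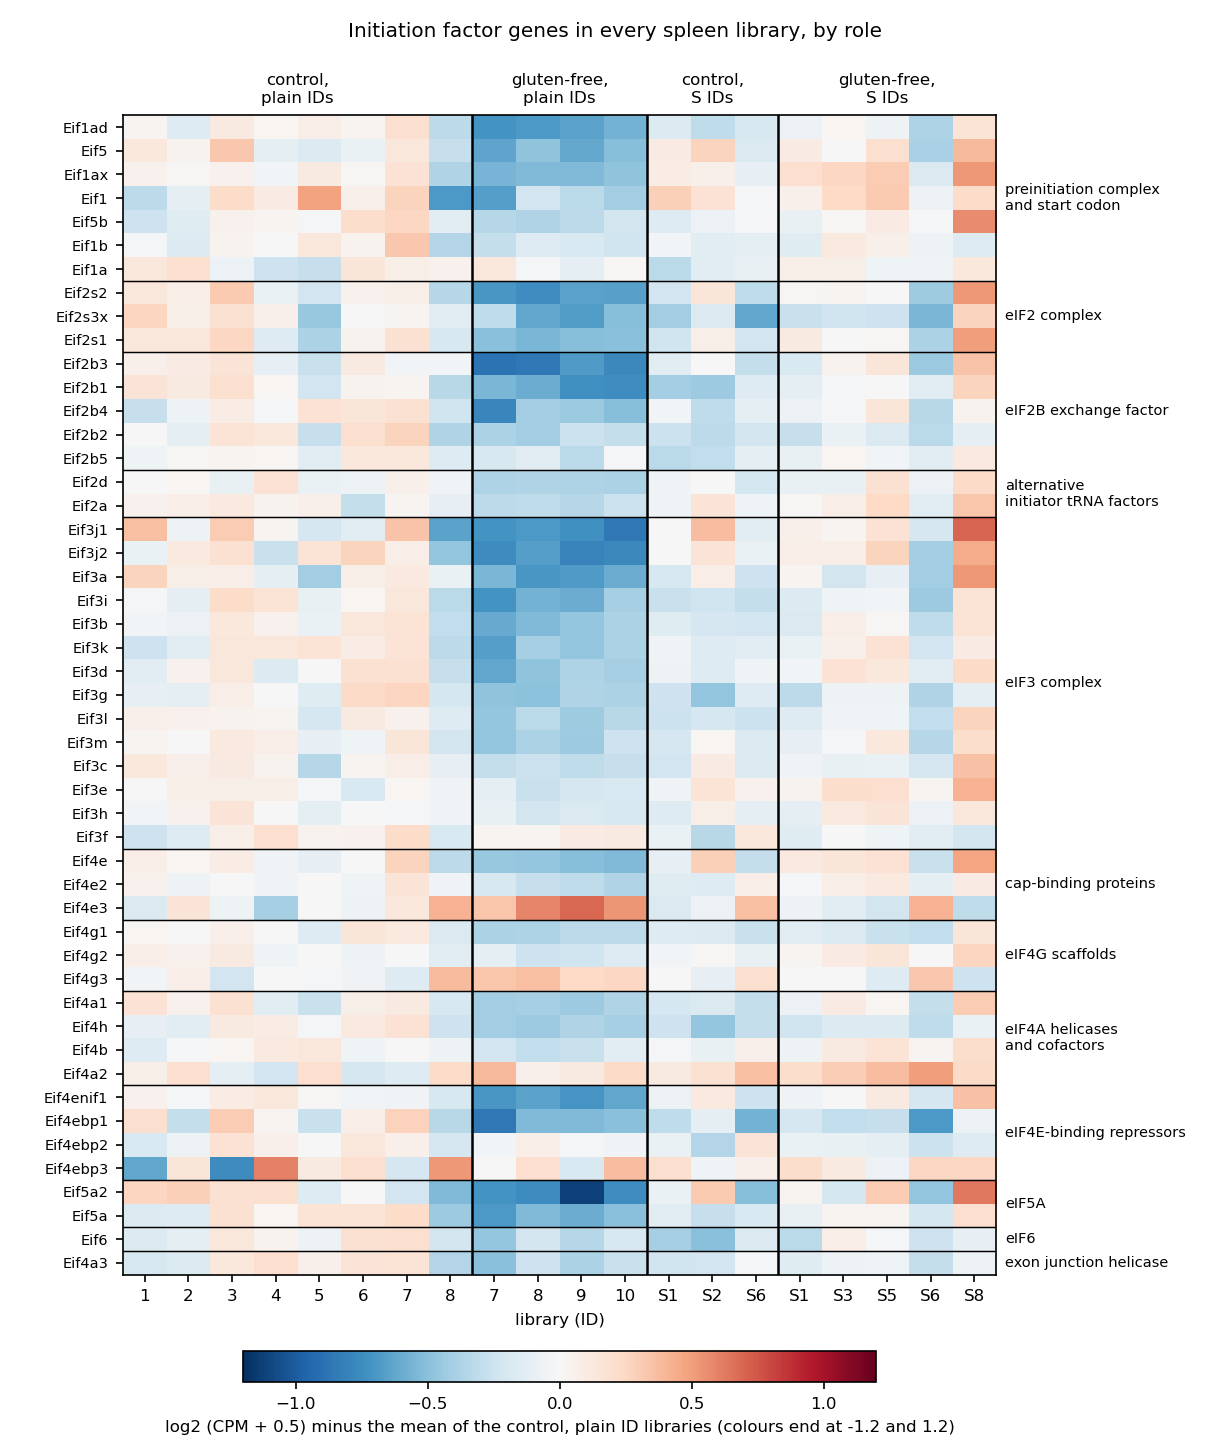
Level of 49 initiation factor genes (rows, grouped by role) in 20 libraries (columns), as log2 of CPM plus 0.5 minus the mean of the control libraries with plain IDs. The 4 gluten-free libraries with plain IDs are low in most rows, the exceptions with a positive log2 fold change being Eif4e3, Eif4g3, Eif4a2, Eif3f and Eif4ebp3, while gluten-free S8 is high in most rows and control 8 and gluten-free S6 are low.

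**Figure D2:**
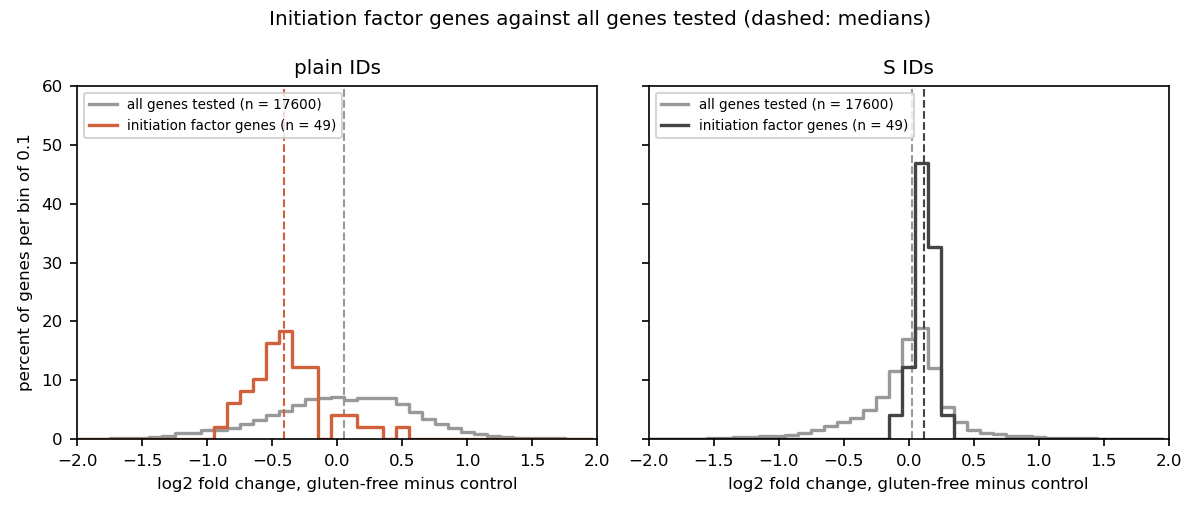
Percent of genes per bin of 0.1 of the log2 fold change, for 49 initiation factor genes and 17600 genes tested, within the plain IDs (left) and the S IDs (right). The dashed median of the members is -0.41 against 0.05 for all genes on the left, and 0.12 against 0.02 on the right (all-gene values beyond 2 in either direction are not drawn).

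The scaling of libraries bears on how many members were called and on their sum. As a plain share of the counts, members took 0.854% to 0.947% in the control libraries with plain IDs. In the gluten-free libraries they took 0.823% to 0.887%, so the unscaled shares overlapped. With library totals and no scaling factor, the median of all genes moved from 0.05 to 0.30, and 24 members were called, 19 lower and 5 higher, against 11.6% of all genes lower and 37.1% higher. Relative to the median of all genes, the median of the members was -0.46 in the main fit and -0.45 with library totals. Eif3e and Eif4b, called lower, had positive values with library totals, and no called member changed sign with RLE scaling.

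Markers of other cell types differed between the same libraries. All 20 erythroid markers fell within the plain IDs, with a summed level of 14193 to 27745 CPM in controls and 6668 to 11301 CPM in gluten-free libraries. All 19 cell cycle genes fell as well, from 5655 to 10250 CPM in controls to 3174 to 4282 CPM in gluten-free libraries. All 10 neutrophil markers (median log2 fold change 1.73), all 6 tested megakaryocyte markers (1.03), all 10 T cell markers (0.73) and 4 of 9 B cell markers (0.48 over all 9) rose. Of 7 red pulp macrophage and 5 adipocyte markers 0 were called. The part of these cell types in the members' values was not tested. With the mean erythroid level as a covariate, 0 members and 2.06% of all genes (362) were called within the plain IDs by edgeR, and the median of the members was -0.09. The erythroid sums of the diets do not overlap there, so this covariate and the diet cannot be told apart.

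**Figure D3:**
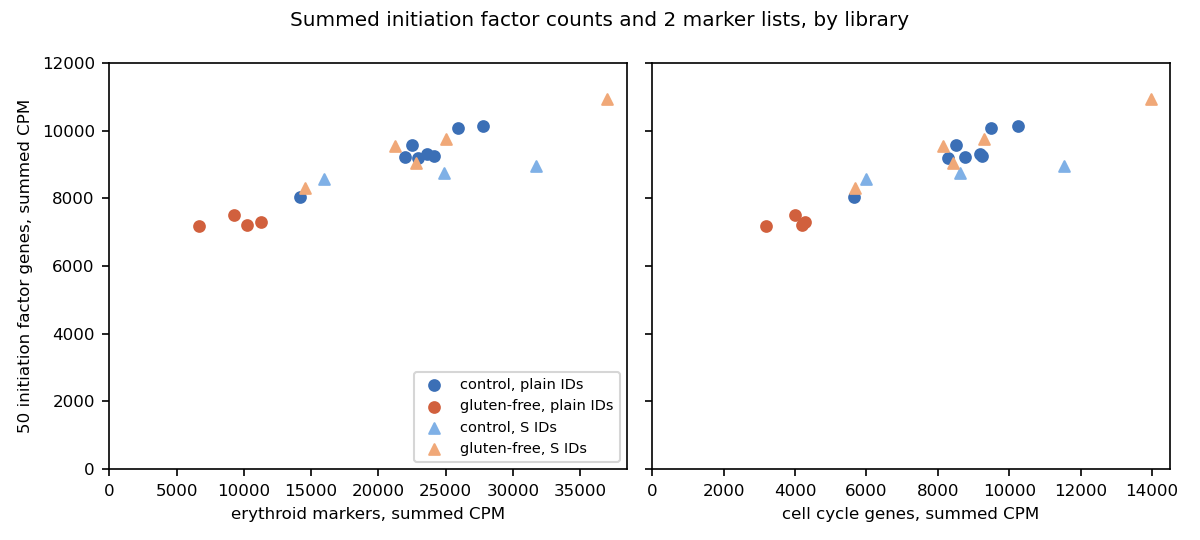
Summed TMM-scaled CPM of the 50 initiation factor genes (vertical axis) against the summed TMM-scaled CPM of 20 erythroid markers (left) and 19 cell cycle genes (right), 1 point per library. The 4 gluten-free libraries with plain IDs are lowest on all axes, and gluten-free S8, with 10945 CPM of members, is highest on all axes.

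The eIF2 complex, which delivers the initiator tRNA, was lower in all 3 subunit genes. Eif2s1, the alpha subunit that carries the regulatory phosphorylation site, had 89.2 to 138 CPM (median 123) in control libraries with plain IDs. The gluten-free libraries with IDs 7 to 10 had 81.9, 79.4, 81.1 and 82.0 CPM. All of these lay below the lowest control library, and the log2 fold change was -0.53 ± 0.11 (standard error; edgeR adjusted p = 0.00103). Among S IDs Eif2s1 had 98.3, 122 and 99.0 CPM in controls and 125, 115, 117, 89.1 and 164 CPM in gluten-free libraries, which overlapped. Eif2s2, the beta subunit, had 114 to 179.6 CPM (median 151) in plain ID controls and 89.2, 85.9, 92.6 and 92.1 CPM in the gluten-free libraries, again with no overlap. It fell by 0.70 ± 0.11 on the log2 scale (edgeR adjusted p = 0.000116). Its S ID values were 123, 161 and 117 CPM in controls and 146, 148, 145, 107 and 208 CPM in gluten-free libraries, with gluten-free S8 the highest of all 20. The X-linked gamma subunit gene Eif2s3x fell with an overlap of the diets. Its mean was 128 ± 18.1 CPM (SD, n = 8) on the control diet and 88.3 ± 10.3 CPM (SD, n = 4) on the gluten-free diet, for a log2 fold change of -0.54 ± 0.12 (edgeR adjusted p = 0.00161). Eif2a and Eif2d, whose products can deliver initiator tRNA by other routes, also fell. Their log2 fold changes were -0.31 ± 0.08 and -0.38 ± 0.07 (edgeR adjusted p = 0.00585 and 0.000629). Eif2d was the more even of the pair, with 41.1, 41.4, 41.2 and 41.0 CPM in the gluten-free libraries and 50.3 to 60.3 CPM (median 52.7) in the controls.

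The exchange factor eIF2B, which reloads eIF2 with GTP, has 5 subunit genes, of which 4 fell. Eif2b3, the gamma subunit of the catalytic part (chr4:117019402-117087306, ENSMUSG00000028683), had 20.5 to 27.8 CPM (median 25.1) in control and 13.2, 13.5, 15.3 and 14.3 CPM in gluten-free libraries with plain IDs. The ranges were far apart, and its log2 fold change of -0.82 ± 0.10 was the second lowest of the members (edgeR adjusted p = 2.53e-05). With S IDs it had 22.6, 24.9 and 20.3 CPM in controls and 21.9, 25.7, 27.5, 18.1 and 31.7 CPM in gluten-free libraries. Eif2b1, the alpha subunit that senses phosphorylated eIF2 (chr5:124570213-124579131, ENSMUSG00000029388), fell by 0.67 ± 0.10. It had 31.5 to 45.8 CPM (median 41.0) in plain ID controls and 27.1, 26.2, 23.8 and 23.7 CPM in gluten-free libraries (edgeR adjusted p = 0.000122). Its S ID values went the other way without overlap, 29.9, 29.3 and 35.7 CPM in controls and 37.1, 39.5, 39.8, 36.2 and 48.1 CPM in gluten-free libraries. That S ID difference of 0.34 ± 0.14 did not pass the test (edgeR adjusted p = 0.898). The delta and beta subunit genes Eif2b4 and Eif2b2 fell with log2 fold changes of -0.55 and -0.35. The catalytic epsilon subunit gene Eif2b5 was not called, at -0.17 ± 0.08 (edgeR adjusted p = 0.113).

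Of the 7 genes grouped under the preinitiation complex and start codon recognition, 5 fell. Eif5, which makes eIF2 hydrolyse GTP once the start codon is found, had 382 to 581 CPM (median 458) in plain ID controls and 299, 331, 302 and 325 CPM in gluten-free libraries. Its values did not overlap, and the log2 fold change was -0.57 ± 0.11 (edgeR adjusted p = 0.000605). Among S IDs Eif5 had 497, 557 and 409.7 CPM in controls and 495, 466, 529, 354 and 606 CPM in gluten-free libraries, a log2 fold change of 0.0054 ± 0.19. Eif1ad was grouped here, though its protein has an eIF1A-like domain and is not among the factors outlined above. It had a mean of 63.0 ± 6.75 CPM (SD, n = 8) in controls against 39.7 ± 1.93 CPM (SD, n = 4), and its log2 fold change was -0.67 ± 0.09 (edgeR adjusted p = 5.58e-05). The paralogs that encode eIF1A differed. The X-linked Eif1ax had 85.2 to 124 CPM (median 112) in controls and 74.5, 75.8, 75.8 and 78.6 CPM in gluten-free libraries with plain IDs, and its log2 fold change was -0.53 ± 0.09 (edgeR adjusted p = 0.000225). The autosomal Eif1a had 37.8 to 53.0 CPM (median 47.8) in controls and 50.5, 45.2, 42.4 and 46.4 CPM in gluten-free libraries, which overlapped, and its log2 fold change was -0.0035 ± 0.10 (edgeR adjusted p = 0.981). Eif5b, which joins the subunits, and Eif1 fell with log2 fold changes of -0.32 and -0.44, and the latter lies near the threshold (edgeR adjusted p = 0.047). Its paralog Eif1b was not called, at -0.23.

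The eIF3 complex, the large platform that holds the other factors on the small subunit, fell in 12 of 14 genes. Their median log2 fold change was -0.46 and the range over all 14 was -0.79 to 0.06. The lowest values belonged to the copies of eIF3j, a loosely held subunit. Eif3j1 had 36.1 to 73.0 CPM (median 56.2) in plain ID controls and 34.2, 35.0, 33.7 and 31.1 CPM in gluten-free libraries, and Eif3j2 fell in step (control mean 55.7 ± 9.14 CPM (SD, n = 8), gluten-free mean 32.6 ± 1.38 CPM (SD, n = 4)). The log2 fold changes were -0.79 ± 0.15 and -0.77 ± 0.12 (edgeR adjusted p = 0.000767 and 0.00014), though reads of these copies cannot be fully separated. Eif3j1 was at 59.0, 58.1, 64.0, 49.2 and 92.1 CPM in gluten-free libraries with S IDs, so gluten-free S8 was the highest of the 20 libraries while the gluten-free plain libraries were the lowest. Eif3a, the largest scaffold subunit, followed at -0.64, then Eif3i at -0.58 and Eif3b, the other scaffold subunit, at -0.50. Among the rest, Eif3k, Eif3d, Eif3g, Eif3l, Eif3m and Eif3c fell with log2 fold changes between -0.48 and -0.29, and Eif3e was near the threshold at -0.19 (edgeR adjusted p = 0.0441). The subunit genes not called were Eif3h at -0.17 ± 0.07 and Eif3f at 0.06 ± 0.09. Eif3f was level between the diets, with 158 to 219 CPM (median 194) in controls and 192, 192, 201 and 203 CPM in gluten-free libraries.

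Of the cap-binding proteins Eif4e and Eif4e2 fell and Eif4e3 rose. Eif4e, the main cap-binding protein (chr3:138526179-138559696, ENSMUSG00000028156), had 88.4 to 132 CPM (median 111) in plain ID controls and 80.0, 79.6, 77.1 and 76.0 CPM in gluten-free libraries. These did not overlap, and the log2 fold change was -0.50 ± 0.09 (edgeR adjusted p = 0.000467). Its S ID values were 103, 134 and 90.3 CPM in controls and 119.8, 122, 124, 91.4 and 153 CPM in gluten-free libraries. Eif4e2, a homolog that acts in repression, fell by 0.29 ± 0.07, with means of 72.2 ± 3.69 CPM (SD, n = 8) on the control diet and 59.2 ± 3.01 CPM (SD, n = 4) on the gluten-free diet (edgeR adjusted p = 0.00393). Eif4e3, a divergent homolog expressed at a low level (chr6:99625135-99666771, ENSMUSG00000093661), had 6.25 to 11.4 CPM (median 8.22) in controls. The gluten-free libraries had 10.7, 12.9, 13.8 and 12.4 CPM, of which all but the lowest lay above the control range. The log2 fold change was 0.55 ± 0.14 (edgeR adjusted p = 0.0057), and in control 8 Eif4e3 was also high. With S IDs Eif4e3 had 7.42, 7.98 and 10.9 CPM in controls and 8.07, 7.62, 7.14, 11.4 and 6.73 CPM in gluten-free libraries, highest in the libraries with the ID S6 of each diet.

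The eIF4G scaffolds split in the same manner. Eif4g1, the main scaffold, fell by 0.35 ± 0.08, with means of 439 ± 34.5 CPM (SD, n = 8) on the control diet and 345 ± 8.62 CPM (SD, n = 4) on the gluten-free diet (edgeR adjusted p = 0.00374). Eif4g3, the second eIF4E-binding scaffold, rose by 0.29 ± 0.10 (edgeR adjusted p = 0.0251), with 107 to 164 CPM (median 124) in controls and 159, 162, 149 and 149.8 CPM in gluten-free libraries. The highest control value was that of control 8, so the ranges overlapped. Without gluten-free 7 or gluten-free 8 the call of Eif4g3 was lost (edgeR adjusted p = 0.0626 and 0.0725). Eif4g2, which works without eIF4E, was not called at -0.19. Among the helicases, Eif4a1 had 474 to 646 CPM (median 595) in controls and 427, 432, 422 and 444 CPM in gluten-free libraries, and its log2 fold change was -0.41 ± 0.10 (edgeR adjusted p = 0.00363). Its paralog Eif4a2 was not called, at 0.19 ± 0.11 (edgeR adjusted p = 0.167). The cofactor genes Eif4h and Eif4b fell with log2 fold changes of -0.41 and -0.23. Eif4a3, whose helicase sits in the exon junction complex and not in eIF4F, fell by 0.36 ± 0.11 (means 101 ± 13.9 CPM (SD, n = 8) and 78.5 ± 6.18 CPM (SD, n = 4), edgeR adjusted p = 0.0137), a call lost without gluten-free 7 (0.0528).

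The proteins that hold eIF4E back also split. Eif4ebp1 (chr8:27260329-27276674, ENSMUSG00000031490) had 34.6 to 54.3 CPM (median 45.5) in plain ID controls and 24.0, 30.1, 30.1 and 30.8 CPM in gluten-free libraries. It did not overlap between the diets and fell by 0.63 ± 0.13 (edgeR adjusted p = 0.00143). Eif4ebp2 (chr10:61428491-61452661, ENSMUSG00000020091) had 158 to 206 CPM (median 186) in controls and 178, 192, 180.2 and 177 CPM in gluten-free libraries, all inside the control range. Its log2 fold change was -0.0052 ± 0.08 (edgeR adjusted p = 0.966). With library totals in place of scaled ones Eif4ebp2 was called higher, at 0.26 (edgeR adjusted p = 0.00548). Eif4enif1, which carries eIF4E into the nucleus and represses bound mRNAs (chr11:3202392-3244588, ENSMUSG00000020454), had 109.8 to 138 CPM (median 125) in controls and 77.4, 80.5, 76.7 and 81.1 CPM in gluten-free libraries. These ranges did not overlap, and its adjusted p of 1.99e-05 at a log2 fold change of -0.67 ± 0.08 was the smallest of the members in edgeR. Eif4ebp3, at 0.277 to 1.49 CPM over the 20 libraries, was not called.

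Both eIF5A genes fell. Eif5a (chr11:69916714-69921958, ENSMUSG00000078812) had 611 to 958 CPM (median 879.7) in plain ID controls and 511, 572, 545 and 581 CPM in gluten-free libraries. The ranges did not overlap, and the log2 fold change was -0.59 ± 0.12 (edgeR adjusted p = 0.00104). With S IDs Eif5a had 749.6, 680.2 and 727 CPM in controls and 776, 844, 846, 713 and 949.8 CPM in gluten-free libraries. Eif5a2, the paralog with the repeated E-box shown above (chr3:28781276-28798846, ENSMUSG00000050192), had 15.3 to 27.2 CPM (median 23.8) in controls and 13.3, 12.9, 9.93 and 13.0 CPM in gluten-free libraries. Its log2 fold change of -0.88 ± 0.15 was the lowest of the members (edgeR adjusted p = 0.000298). Eif6, which keeps the large subunit from joining too early, fell by 0.31 ± 0.10 with overlap, with means of 80.7 ± 9.08 CPM (SD, n = 8) on the control diet and 65.2 ± 5.54 CPM (SD, n = 4) on the gluten-free diet (edgeR adjusted p = 0.0163). That call was lost without gluten-free 7 or gluten-free 9 (edgeR adjusted p = 0.0656 and 0.0502).

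Among the S IDs 0 of 49 members were called in edgeR, as were 0% of all genes. At an unadjusted p under 0.05 edgeR gave 1 member, Eif2b1, against 5.21% of all genes. DESeq2 and limma-voom called 0 members at their adjusted p, against 0.0134% and 0% of the genes they tested. The log2 fold change was positive for 45 of 49 members, with a median of 0.12 against 0.02 for all genes. The summed level of the members was 8745, 8947 and 8571 CPM in controls and 9044, 9546, 9748, 8295 and 10945 CPM in gluten-free libraries. Gluten-free S6 had the lowest value of its group for 37 of 49 members and gluten-free S8 the highest for 34. The same libraries had the lowest and the highest sums of erythroid markers in the group, 14542 and 36955 CPM. The part of cell makeup in this spread was not tested. Of 49 members 2 did not overlap between the diets, which is near the 3.68% of all genes. They were Eif2b1 and Eif1a, both higher in gluten-free libraries. Eif1a had 36.7, 41.9 and 43.1 CPM in controls and 48.3, 48.3, 44.2, 44.3 and 50.2 CPM in gluten-free libraries.

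**Figure D4:**
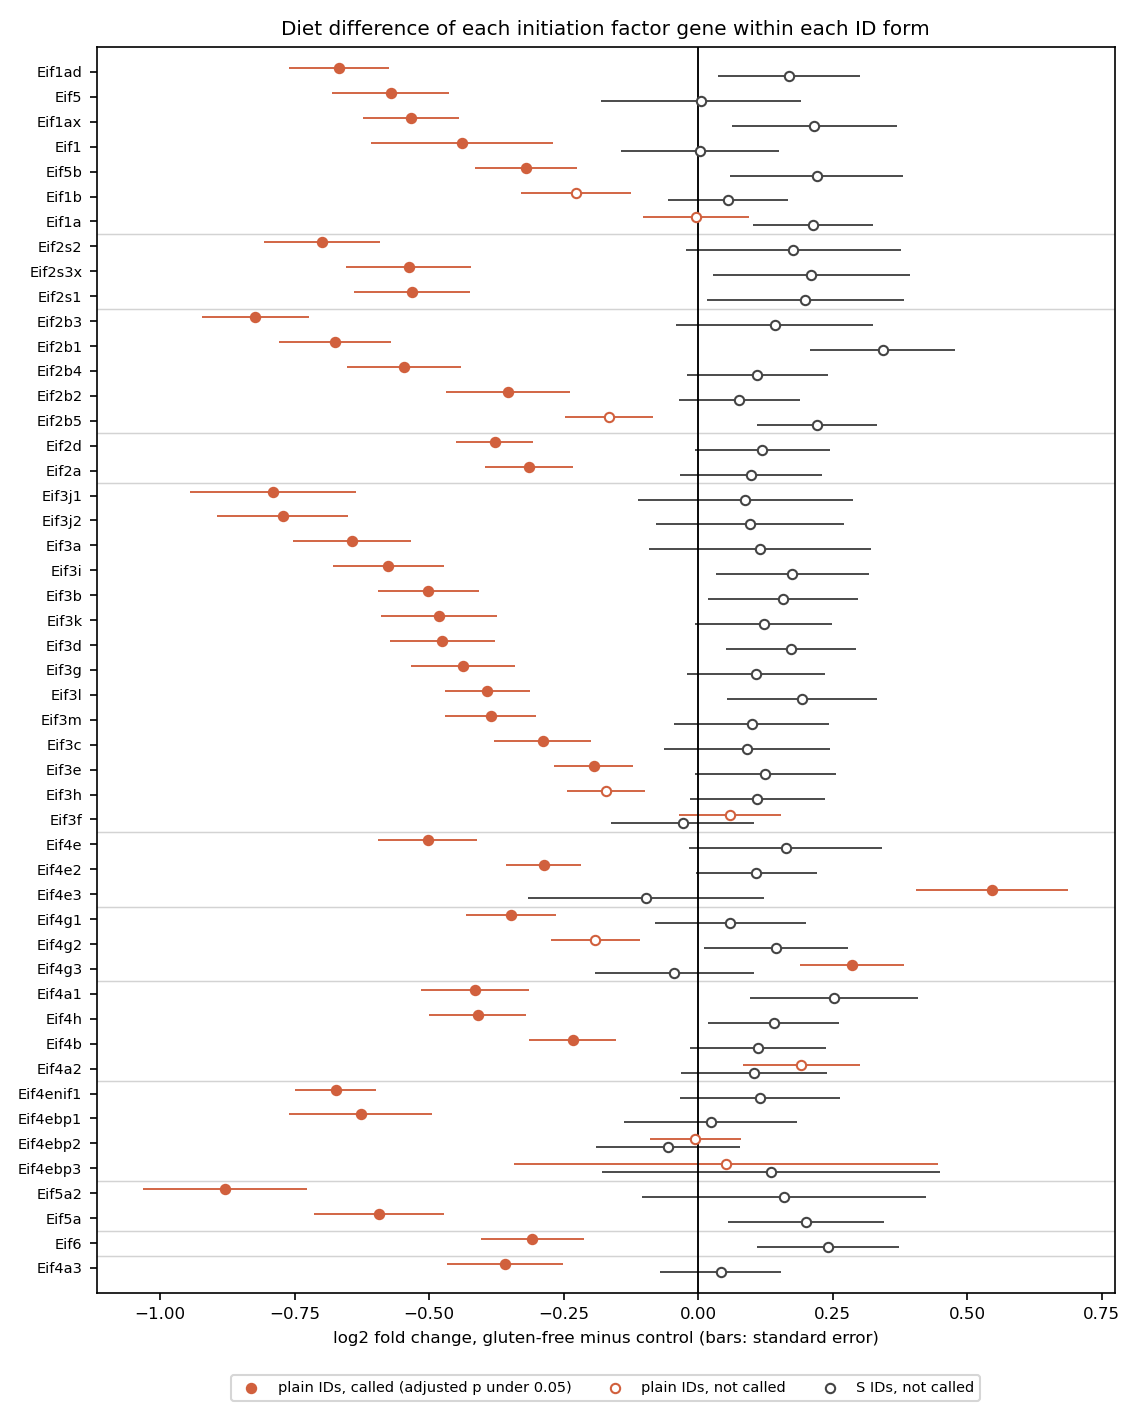
Log2 fold change, gluten-free minus control, of each of 49 initiation factor genes, within the plain IDs (orange) and the S IDs (grey), with its standard error. Filled points passed an adjusted p of 0.05: 38 lie left of 0 and Eif4e3 and Eif4g3 right of it, all within the plain IDs, while the S ID points lie between -0.10 and 0.34.

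The difference between the diet effects of the ID forms was tested with an interaction term, the S ID effect minus the plain ID effect. It was positive and called for 34 of 49 members and negative and called for 0, while 15.3% of all genes were called higher and 10.3% lower. The median was 0.55 over the members and -0.04 over all genes. Cell cycle genes and markers of some cell types differed in the same test. Called higher were 19 of 20 erythroid markers and 19 of 19 cell cycle genes (medians 1.36 and 1.21). Called lower were 10 of 10 neutrophil and 5 of 6 megakaryocyte markers (medians -2.14 and -1.56). Of the other spleen cell lists 0 of 9 B cell, 1 of 10 T cell (lower) and 0 of 7 red pulp macrophage markers were called. The 5 members with the smallest p were Eif2b1 at 1.02 ± 0.16, Eif1ad at 0.84 ± 0.15, Eif4enif1 at 0.79 ± 0.15, Eif2b3 at 0.96 ± 0.19 and Eif1ax at 0.75 ± 0.16 (edgeR adjusted p = 0.00181, 0.00225, 0.00225, 0.00265 and 0.00406). Eif4e3 had the lowest value, -0.64 ± 0.25, which was not called (edgeR adjusted p = 0.0613). With library totals 12 members were called positive and 1 negative, against 7.50% and 15.0% of all genes, and the median of all genes moved to -0.30. With the erythroid mean as a covariate 1 member, Eif2b1, was called, against 7.11% of all genes. The gluten-free libraries with plain IDs had lower erythroid means than all others, so the covariate and the groups cannot be fully told apart.

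The ID forms were also compared with the diet held fixed. In controls 0 of 49 members were called between the forms, against 2.35% of all genes. At an unadjusted p under 0.05 edgeR gave 9 of 49 members, near the 16.2% of all genes. DESeq2 and limma-voom called 0 members at their adjusted p, against 4.38% and 1.44% of the genes they tested. All 6 megakaryocyte markers (median 1.44) and 1 of 10 T cell markers were called higher with S IDs in controls. Of the erythroid, neutrophil, B cell and red pulp macrophage markers 0 were called in controls. In gluten-free libraries 30 members were higher with S IDs than with plain IDs and 1, Eif4e3, was lower, so that 31 were called, against 33.1% of all genes (3514 higher and 2307 lower of 17600). All 20 erythroid markers and all 19 cell cycle genes were higher there too (medians 1.38 and 1.16), and 7 of 10 neutrophil markers were lower. Of the B cell, T cell, megakaryocyte and red pulp macrophage markers 0 were called there. The median log2 difference, S minus plain, was -0.10 over the members in controls and 0.38 in gluten-free libraries. Eif3j1, Eif5a2 and Eif3j2 had the largest values in gluten-free libraries, 0.94 ± 0.16, 0.96 ± 0.21 and 0.88 ± 0.15. With library totals 14 members were higher and 5 lower, against 9.39% and 32.2% of all genes, and the median of all genes moved from -0.06 to -0.36. With the erythroid covariate 0 members and 0% of all genes were called in gluten-free libraries by edgeR. The mean log2 CPM of the erythroid markers was 7.70 to 8.42 with plain IDs and 8.79 to 10.1 with S IDs there. These do not overlap, so this covariate and the ID form cannot be told apart. In controls 1 member, Eif2s3x, was called lower with S IDs under the covariate, against 5.77% of all genes. It was also called without control 5, against 3.69%.

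Over both ID forms, with the form as a term, 0 of 49 members and 0% of all genes were called by edgeR. At an unadjusted p under 0.05 there were 20 of 49 members in edgeR, against 25.5% of all genes. At an adjusted p limma-voom called 0 members, against 0.00568% of all genes (1 gene). DESeq2 called 4 lower, Eif5, Eif4enif1, Eif3j2 and Eif2b3, against 10.1% of the genes it tested called in either direction. The median of the members was -0.19 against 0.01 for all genes. Leaving out control S6 gave 13 called members of 49, 12 lower and Eif4e3 higher, against 21.6% of all genes. Leaving out gluten-free S8 gave 11, all lower, against 16.7% of all genes. The members with the smallest p in the fit of 20 libraries included Eif2b3 at -0.42 ± 0.14 and Eif4ebp1 at -0.36 ± 0.13 (edgeR adjusted p = 0.103 and 0.108).

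Within several families, 1 member fell and its relative did not within the plain IDs, so the balance of the pair was computed per kilobase in each library. These ratios are a description of members chosen with results known, and have no test. The ratio of Eif4a2 to Eif4a1 was 0.449 to 0.756 (median 0.509) in plain ID controls and 0.959, 0.755, 0.800 and 0.826 in gluten-free libraries, so that 1 gluten-free value lay within the control range. That of Eif4ebp2 to Eif4ebp1 was 1.22 to 1.90 (median 1.62) in controls and 2.82, 2.43, 2.27 and 2.18 in gluten-free libraries, with no overlap. That of Eif1a to Eif1ax was 0.586 to 1.02 (median 0.761) in controls and 1.24, 1.09, 1.02 and 1.08 in gluten-free libraries. In each of these pairs the control median lay below every gluten-free value with plain IDs. Eif4e3 per Eif4e was 0.139 to 0.309 (median 0.170) in controls and 0.321, 0.387, 0.429 and 0.390 in gluten-free libraries. With S IDs each of these ratios overlapped between the diets. Eif4a2 to Eif4a1 was 0.685 to 0.862 in S ID controls and 0.521 to 0.944 in gluten-free libraries. Eif4ebp2 to Eif4ebp1 was 1.35 to 2.61 (control S6) and 1.49 to 2.14. Eif1a to Eif1ax was 0.576 to 0.769 and 0.582 to 0.832, and Eif4e3 per Eif4e 0.142 to 0.289 and 0.105 to 0.298. Both eIF4E-binding proteins together, per Eif4e, came to 2.50 to 3.10 (median 2.87) in controls and 3.13, 3.54, 3.50 and 3.53 in gluten-free libraries, also without overlap. With S IDs the same ratio was 2.68, 1.93 and 3.22 in controls and 2.36, 2.26, 2.21, 2.54 and 1.85 in gluten-free libraries, so there the gluten-free values were not above the control range.

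**Figure D5:**
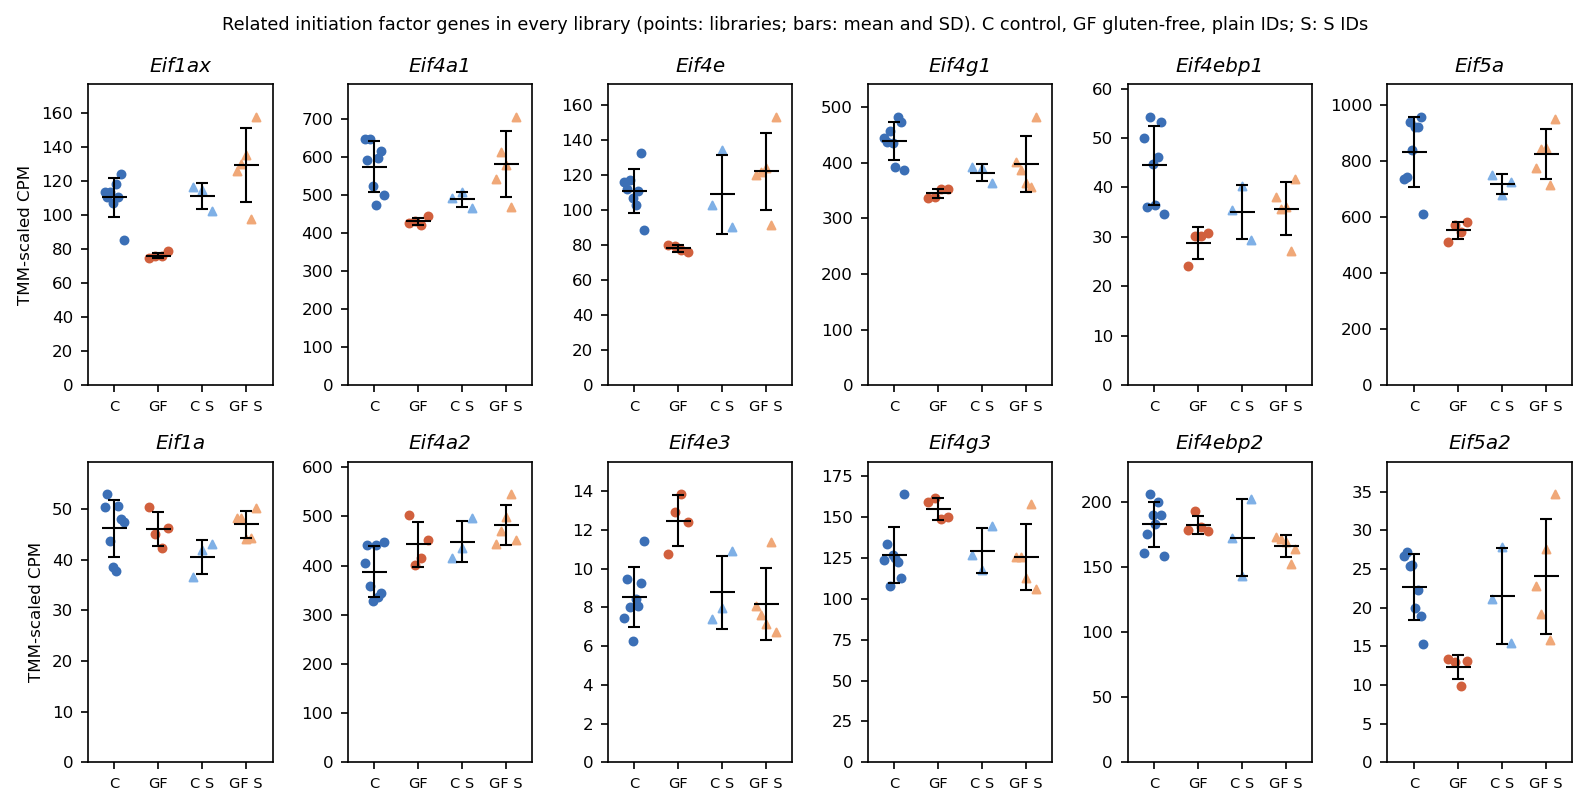
TMM-scaled CPM of 6 pairs of related initiation factor genes in each library (points), with the mean and SD of each group, for control (C) and gluten-free (GF) libraries with plain IDs and with S IDs. In the gluten-free libraries with plain IDs the upper genes are low, while Eif1a and Eif4ebp2 stay within the control range and Eif4e3 and Eif4g3 are high; Eif5a2 is low with Eif5a.

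The counts of genes outside the member list that follow stand against the 22.0% of all genes that fell and the 19.7% that rose within the plain IDs. The kinases that phosphorylate eIF2 split there, 2 of 4 falling. Eif2ak1, the heme-regulated kinase of erythroid cells, fell by 0.96 ± 0.16, with means of 322 ± 51.6 CPM (SD, n = 8) on the control diet and 165 ± 37.4 CPM (SD, n = 4) on the gluten-free diet (edgeR adjusted p = 0.000169). Eif2ak2, the kinase activated by double-stranded RNA, fell by 0.57 ± 0.10. Eif2ak3, the kinase of endoplasmic reticulum stress, and Eif2ak4, the kinase of amino acid shortage, were not called at 0.15 and -0.02. Of 5 genes for subunits of the eIF2 phosphatases 4 fell, the lowest being Ppp1r15a at -0.98 ± 0.22. Of 10 genes induced through the integrated stress response 5 fell and 1 rose. Asns, asparagine synthetase, was lowest at -1.28 ± 0.18, Atf4, the transcription factor whose own translation rises when eIF2 is phosphorylated, fell by 0.70 ± 0.13, and Vldlr rose by 0.78. Among the S IDs 0 genes of these lists were called in edgeR, and the lists' unadjusted counts were 0, 0 and 1.

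Of 13 genes of mTOR and MNK signalling, which act on eIF4E, 3 fell and 0 rose, and 3 of 13 is near the 22.0% of all genes that fell. They were Mlst8 at -0.47, Larp1, which binds mRNAs of ribosomal proteins, at -0.34, and Rheb at -0.25. Of 5 genes for poly(A)-binding proteins and their partners 3 fell, with Pabpc4 lowest at -1.07 ± 0.15 and Pabpc1, which joins the mRNA tail to eIF4G, at -0.64. Of 5 initiation helpers and recycling factors Abce1, which splits ribosomes after termination, fell at -0.35 and Mcts1 rose at 0.26. In the later steps of translation 6 of 7 tested genes grouped as elongation factors fell. The lowest, at -0.97 ± 0.11, was Eef1e1, which was grouped there though its product is a part of the multisynthetase complex. Of 3 termination factor genes Etf1 and Gspt1 fell, at -0.43 and -0.35, and Gspt2 rose at 0.66. Of the enzymes that make hypusine on eIF5A, Dohh fell at -0.46 and Dhps was not called at 0.13.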

How the data were processed

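Whole spleen RNA was sequenced in 20 libraries. Per the submitters' processing notes, CASAVA, HISAT2 2.0.5, featureCounts 1.5.0 and the build GRCm38 (mm10) were used. The deposited values are raw counts per gene, whole numbers with no normalization by the authors, beside a deposited gene length in bases (the measure used for values per kilobase). The strand setting and the annotation release are not given in the sources used here. Totals of 13626021 to 24268237 counts set the counting error. Over 47 pairs of libraries of the same group, the chi-square statistic over its degrees of freedom was 5.72 to 95.6. Pooled over genes, libraries of a group thus differed by more than counting error. Counting error weighs more on low members such as Eif4ebp3, at 4 to 24 counts per library.

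Groups came from the diet and the form of the ID in each title. The default expression filter of edgeR 4.0.16 (R 4.3.3) and TMM factors were set once over the 20 libraries and left 17600 genes. Comparisons used the quasi-likelihood test, two-sided, with Benjamini-Hochberg adjustment over all genes tested and a threshold of 0.05. Standard errors were taken as the size of the log2 fold change divided by the root of F. Fits over both ID forms held the form as a term. The script was tested on simulated data.

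Alternatives were RLE factors, library totals, no filter, a filter at a mean of 1 CPM, other tools (DESeq2 1.42.0, limma-voom with limma 3.58.1), 1 fit over 4 groups, the mean log2 CPM of the erythroid markers as a covariate, a replicate block, no term for the ID form, and leaving out each library. TMM factors set within a comparison, and leaving out both libraries with acinar counts, were added after seeing the data. Members and lists were chosen with earlier results of these data known, so no list was tested as a list.

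Named members were up to 2 called highest and 2 called lowest of each role within the plain IDs, the 5 smallest p in the interaction and in the pooled fit, and Eif4ebp1, Eif4ebp2, Eif4e, Eif2s1, Eif5a, Eif6, Eif1a and Eif1ax, 27 in all. Other members are given by a value, a range or a count. Promoter windows are those of RefSeq (GRCm38.p6), the build of the deposited positions, and for genes with several windows the one nearest the deposited start was taken. Transcript windows are from GENCODE, whose positions equal the deposited ones for 47 of 50 members.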

Additional observations from a re-analysis of the deposited data

Results flagged for a closer look

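For 22 of the 27 named members the diet difference itself differed between the ID forms (edgeR interaction term, S IDs minus plain IDs, adjusted p under 0.05). The values on the log2 scale were 1.04 for Eif5a2, 1.02 for Eif2b1, 0.96 for Eif2b3, 0.88 for Eif3j1, 0.88 for Eif2s2, 0.87 for Eif3j2, 0.84 for Eif1ad, 0.79 for Eif5a and 0.79 for Eif4enif1. They were 0.75 for Eif1ax, 0.75 for Eif2s3x, 0.73 for Eif2s1, 0.67 for Eif4a1, 0.66 for Eif4e, 0.65 for Eif4ebp1 and 0.58 for Eif5. The lowest were 0.55 for Eif4h, 0.55 for Eif6, 0.50 for Eif2d, 0.41 for Eif2a, 0.41 for Eif4g1 and 0.39 for Eif4e2. All 22 were positive, while 15.3% of all genes were called higher and 10.3% lower in the same test. Named members were chosen in part by the smallest p of this interaction and mostly as the lowest called within the plain IDs, which enters it, so their number and direction follow in part from the choice. Leaving out 1 library at a time ended the call of Eif4g1 in 11 fits, Eif5 in 10, Eif2a in 8, Eif4ebp1 in 4, Eif3j1 in 2, and Eif4e and Eif5a2 in 1 each, with adjusted p up to 0.121 (Eif5 without control S6). It added calls of Eif4e3, Eif4g3 and Eif4a3 in 2 fits each (lowest edgeR adjusted p = 0.0136, 0.0395 and 0.0200). In the 20-library fit Eif4e3 and Eif4g3 were negative, at -0.64 and -0.33, and Eif4a3 was positive at 0.40.

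A library stood apart from the rest of its group in 5 of 81 pairs of a named member and a group, which is near the 1 in 20 that chance gives. Control 8 was lowest of 8 plain ID controls for Eif1ax at 85.2 CPM (next 107 CPM) and highest for Eif4g3 at 164 CPM (next 133 CPM). In the gluten-free libraries with plain IDs, Eif4ebp1 was low in library 7 at 24.0 CPM (next 30.1 CPM) and Eif5a2 was low in library 9 at 9.93 CPM (next 12.9 CPM). In the gluten-free libraries with S IDs, Eif4e3 was high in library S6 at 11.4 CPM (next 8.07 CPM).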

How the results depend on the processing

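Within the plain IDs 33 (without gluten-free 7) to 43 members (without control 8) were called when 1 library was left out, and 37 to 42 under the other filters, tools, RLE and the fit over 4 groups. Library totals gave 24 there, 13 in the interaction and 19 between the ID forms in gluten-free libraries. With the erythroid covariate the counts were 0, 1 and 0, and 1 between the ID forms in controls. Leaving out 1 library gave 25 to 40 in the interaction, 24 to 38 between the forms in gluten-free libraries, 0 to 1 in controls (1 without control 5), 0 in the S IDs and 0 to 13 over both forms, where DESeq2 gave 4. The share of all genes called moved between fits as well. Over both forms it was 0% with all 20 libraries and 21.6% without control S6. Shares are not given here for most of these fits, so the ranges describe the fits and not the members alone. Within the plain IDs 8 members changed sign with library totals, of which 2 were called (Eif3e and Eif4b), and 17 with the erythroid covariate, of which 12 were called. Among the named members these include Eif4ebp2 at 0.26 with library totals and, with the erythroid covariate, Eif3j1 at 0.15, Eif4a3 at 0.25, Eif4ebp1 at 0.19, Eif4g3 at -0.24, Eif5a at 0.062 and Eif6 at 0.15. In the interaction that covariate changed the sign of 6 members, 3 of them called in the 20-library fit, to -0.033 for Eif3j1, -0.051 for Eif4ebp1 and -0.090 for Eif5. The cause was not tested.

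A replicate block over the shared IDs (7, 8, S1 and S6) called 0 members within the plain IDs, with 42 genes in all on 4 libraries, and 0 within the S IDs and over both forms. Deviations of libraries with the same ID correlated at -0.19, -0.22, 0.14 and 0.41, and 4 of 8 libraries correlated best with their own number. With so few shared IDs these values cannot decide whether the numbers pair the samples. Depth limits Eif4ebp3 most, at no more than 1.49 CPM.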
